A study of Homo sapiens with 12 samples.

Results

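Newly made RNA was compared between PPM1G knockout and control cells of HCT116, a human colorectal carcinoma line, across all genes and across the gene types of the deposited annotation. These are the 6 nascent RNA libraries of 12 in the series, 3 of control (Ctrl) and 3 of knockout (KO) cells, chosen by their column names in the nascent count table; the others measure steady-state RNA. Both groups were HCT116 at passages under 15, grown in the same medium and seeded separately for each biological replicate. They were pulsed for 10 min with 500 µM 4-thiouridine (4sU), and 300 µg of RNA per sample was biotinylated and pulled down, with ERCC spike-in RNA added at an amount not stated. The labels give Ctrl and KO as genotypes, and the titles name the controls Ctrl_KO. They do not say what the controls carry, whether either line is 1 clone or which site was edited, so differences between lines and the loss of PPM1G cannot be told apart here.

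Cells build 4sU into RNA while it is being transcribed, so the pulled-down fraction is enriched for RNA made during the pulse, introns included, and depleted of older messenger RNA. PPM1G is a phosphatase of the nucleus that removes phosphate from serine and threonine, known for its roles in pre-mRNA splicing and in the release of P-TEFb, the kinase that frees paused RNA polymerase II. In bulk RNA a change in every cell and a change in some of the cells cannot be told apart.

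The libraries held 79403238 to 101884166 gene counts, and the floor of detection, set at 3 counts, lay at 0.0294 to 0.0378 CPM (counts scaled to library size; floors cover counting error only). KO replicate 2 stood apart. Its log2 CPM correlated with KO replicates 1 and 3 at 0.980 and 0.974, against 0.997 between those and 0.993 to 0.997 among Ctrl libraries, and it lay at 72.5 on a second principal component that held 28.9% of the variance. Relative to Ctrl its genes under 10 kb were higher (median log2 difference 0.29, against −0.17 and −0.27 in KO replicates 1 and 3) and those above 300 kb lower (−0.16, against 0.46 and 0.49). Ctrl replicate 2 leaned the same way from the Ctrl mean, more weakly (0.12 under 10 kb and −0.12 above 300 kb). Ctrl replicate 3 leaned the other way (−0.09 and 0.13). Counts below are therefore also given without KO replicate 2. That fit keeps Ctrl replicate 2, so it is not balanced for this lean. It called 11673 genes, against 10893 with both replicates numbered 2 left out. ERCC RNA made up 0.0230% to 0.0560% of gene counts, with both extremes in the KO group, and KO replicate 2 held the highest share. Of the epithelial markers EPCAM, KRT8, KRT18, KRT19, CDH1 and CDX2 were present, while CEACAM5 had no count and CDX1 was near the floor. Blood markers summed to at most 0.50 CPM in each library. The fibroblast list summed to 4.99 to 5.94 CPM in Ctrl and 9.71 to 13.7 in KO, mostly COL1A1, with 3 of 7 markers (LUM, PDGFRA and THY1) at 0. Endothelial markers summed to 6.27 to 7.02 and 13.2 to 13.6 CPM, and the neural and kidney list, nearly all PAX2, to 15.4 to 16.1 and 27.5 to 27.8. The part of these lists in the results below was not tested.

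The targeted gene was checked first. PPM1G (ENSG00000115241) stood at 242, 271 and 235 CPM in Ctrl replicates 1 to 3 and at 98.9, 144 and 104 in the KO replicates, a log2 change of −1.11 ± 0.17 (KO over Ctrl, ± SE, n = 3 per group here and below). The groups did not overlap, nascent RNA of the gene remained in every KO library, and KO replicate 2 held the most of it. The change passed the test in edgeR's quasi-likelihood fit (adjusted p = 0.00717) and not under ERCC scaling (−0.93, adjusted p = 0.196).

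Of 21236 genes tested, 19.6% were called at an adjusted p below 0.05 (edgeR, Benjamini-Hochberg). The genes that rose, 2684 or 12.6%, had a median log2 change of 1.23, and those that fell, 1482 or 6.98%, a median of −0.64. Large changes were mostly increases: 1765 genes (8.31%) rose and 246 (1.16%) fell by more than 2-fold, 509 and 47 by more than 4-fold, and 51 and 16 by more than 16-fold. The 3 KO libraries all lay above or all below the 3 Ctrl libraries for 8157 genes, 38.4% of those tested.

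The balance between rising and falling genes changed with KO replicate 2 and with the scaling. Without KO replicate 2, 53.8% of 21686 genes were called, 5515 (25.4%) higher and 6158 (28.4%) lower, and all 4166 genes called with it were among them. Increases made up 64.4% of the calls with all libraries and 47.2% without that one. They made up 93.9% of 716 calls (3.37% of tested genes) under ERCC scaling, where the median change of all genes moved from 0.05 to 0.27, and 78.3% of 3958 under library size alone. Of the 716 calls under ERCC scaling 713 were shared, and no shared call changed sign. Groups of genes are therefore set below against the median of all genes under the same scaling.

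Rising genes were mostly weakly transcribed and falling genes mostly strongly transcribed. Below 1 CPM 17.9% of tested genes rose and 2.97% fell, while above 64 CPM 3.33% rose and 12.5% fell. The shares crossed between 4 and 64 CPM: 16.5% rose and 6.49% fell at 4 to 16 CPM, and 6.30% and 8.00% at 16 to 64. Median log2 changes fell from 0.28 in the lowest class through 0.21, 0.12 and −0.05 to −0.13 in the highest. Under ERCC scaling the same medians ran from 0.50 to 0.10, so the order of the classes stayed and the sign of the upper ones did not. Without KO replicate 2 they ran from 0.27 to −0.22. The split by level held for protein-coding and long noncoding genes alike. At 1 to 4 CPM, 29.7% of 1628 coding genes rose and 5.59% fell, and above 64 CPM 3.21% of 4398 rose and 12.4% fell. Among 83 long noncoding genes above 64 CPM 10.8% rose and 19.3% fell. Genes of low level can enter the test through 1 group alone, which favours calls towards that group. Of all tested genes 662 averaged at least 10 counts only in KO (269 of them coding) and 141 only in Ctrl (38 coding). Among the 20414 that did so in both groups 2301 rose and 1434 fell (median 0.03). Shares by level were not taken for these alone, so the part of the filter in the split was not tested.

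**Figure D1:**
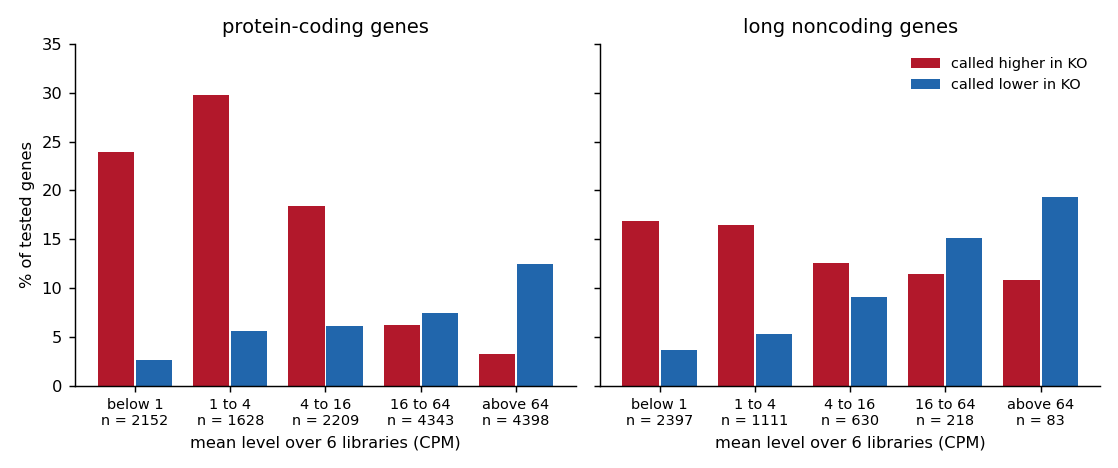
Share of tested genes called higher (red) and lower (blue) in KO, in percent, by mean level over the 6 libraries in CPM, for protein-coding genes (left) and long noncoding genes (right), with the number of genes under each pair of bars. Among coding genes the red bars go from 23.9% below 1 CPM through 29.7% at 1 to 4 CPM down to 3.21% above 64 CPM, and the blue bars grow from 2.60% to 12.4%. Genes that entered the test through 1 group alone are included.

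Pooled over all levels, long noncoding genes had the highest median of the 4 broad gene types. At matched level, where only coding genes were compared with them, their median was the higher at 16 to 64 CPM alone. Of 14730 protein-coding genes tested 1815 rose and 1151 fell (20.1% called, median 0.02). Of 4439 long noncoding genes 700 rose and 252 fell (21.4%, median 0.20), and of 1901 pseudogenes 160 rose and 73 fell (12.3%, median −0.01). Only 162 of 5106 small RNA genes were tested, of which 8 rose and 6 fell. Without KO replicate 2 the counts were 3627 and 4988 for coding genes, 1375 and 695 for long noncoding genes, 320 and 433 for pseudogenes and 12 and 19 for small RNA genes. Rising genes thus outnumbered falling ones in every broad type with all libraries, and without KO replicate 2 among the long noncoding genes alone of these 4. Relative to all genes, the long noncoding median was 0.15 to 0.20 higher in each of the 4 scalings tried and without KO replicate 2. Under ERCC scaling 495 coding genes rose and 29 fell, against 145 and 13 long noncoding genes. The long noncoding genes lay mostly at low levels, and below 16 CPM coding genes rose more often than long noncoding genes of the same level class. Below 1 CPM 23.9% of coding and 16.9% of long noncoding genes rose (medians 0.40 and 0.30), at 1 to 4 CPM 29.7% and 16.5% (0.37 and 0.15), and at 4 to 16 CPM 18.4% and 12.5% (0.17 and 0.08). At 16 to 64 CPM the order was the other way, with 6.22% and 11.5% (−0.05 and 0.02). Above 64 CPM 3.21% and 10.8% rose, with near-equal medians (−0.126 and −0.127).

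Within the long noncoding genes the lincRNAs, which lie between genes, had a higher median than antisense genes, processed transcripts and sense-overlapping genes, again pooled over levels. Of 2308 tested lincRNAs 433 rose and 113 fell (23.7% called, median 0.31, and 0.32 without KO replicate 2). Antisense genes had 203 rising and 100 falling of 1588 (median 0.11), processed transcripts 42 and 20 of 290, and sense-overlapping genes 8 and 10 of 89. The symbols starting with LINC gave 79 and 21 of 382 (median 0.40), and the named antisense RNAs 66 and 40 of 494 (median 0.12). The pseudogenes split by origin. Processed pseudogenes, copies of spliced mRNA, were called least often of the types with over 100 tested genes, with 34 rising and 23 falling of 976 (5.84%, median −0.06). Unitary pseudogenes, which are disabled single genes, gave 11 and 4 of 51 (median 0.34), and their transcribed class 9 and 1 of 28 (35.7%, median 0.37). Many transcripts of low level were tested because of the KO group alone: 287 of the tested long noncoding genes averaged at least 10 counts only in KO, and 60 only in Ctrl. Among the 4081 that did so in both groups 539 rose and 224 fell (median 0.16).

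**Figure D2:**
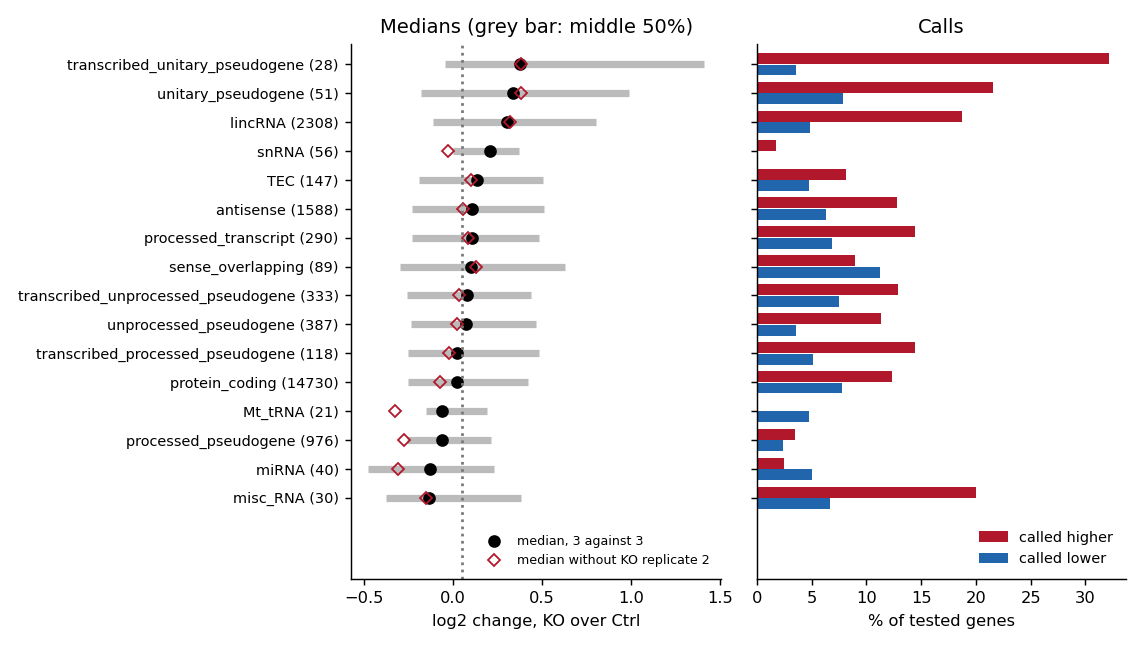
Gene types with at least 20 tested genes, with the number tested in brackets. Left, median log2 change (black circles), the middle 50% of genes (grey bars) and the median without KO replicate 2 (red diamonds), with the median of all genes dotted; right, percent of tested genes called higher (red) and lower (blue). Transcribed unitary pseudogenes, unitary pseudogenes and lincRNAs have the highest medians, at 0.37, 0.34 and 0.31.

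Rising genes outnumbered falling ones among the long noncoding genes, while the mean share of all counts that they took was lower in KO, within the spread between libraries. Long noncoding genes took 8.62 ± 1.79% (SD, n = 3) of the counts in Ctrl and 7.04 ± 0.830% in KO, and protein-coding genes 89.8 ± 1.83% and 91.4 ± 0.855%. The two-sided exact permutation p was 0.3 for each, 0.6 adjusted over 18 types, in a design whose smallest p is 0.1. The drop lay in a pair of rows on chromosome 21 typed as lincRNA, CH507-513H4.1 (ENSG00000278996, hg38 chr21:8197620-8227646) and CH507-528H12.1 (ENSG00000280441, chr21:8380665-8410645). In RefSeq on GRCh38.p14 they overlap RNA45SN2 and RNA45SN3, copies of the gene for the 45S precursor of ribosomal RNA. Together they took 7.77%, 4.55% and 4.75% of the counts in the Ctrl libraries and 4.50%, 3.97% and 2.93% in KO. All KO libraries lay below all Ctrl libraries, which is exact p = 0.1, and 1 Ctrl library stood far above the others. Neither row passed the test (log2 −0.69 ± 0.24, adjusted p = 0.0958, and −0.66 ± 0.25, adjusted p = 0.114, edgeR). With these rows left out, long noncoding RNA made up 3.10 ± 0.0912% in Ctrl and 3.36 ± 0.299% in KO, so the sign of the difference turned (exact p = 0.3). How reads from the near-identical ribosomal copies were assigned is not given in the sources used here.

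Few small RNA genes were called, and the counts of their rows can come from longer transcripts that run through them. Metazoa_SRP, a row for the RNA of the signal recognition particle, which targets secreted proteins to the endoplasmic reticulum, rose from 118, 139 and 134 CPM to 211, 229 and 218 (0.75 ± 0.10, adjusted p = 0.00545). RN7SL396P, a relative of that RNA, rose by 1.11 ± 0.17, and its call was lost without Ctrl replicate 1 (adjusted p = 0.0541), while RN7SL472P fell from 1.73 to 0.486 CPM (−1.83 ± 0.16). These rows are near-identical copies, so the assignment of reads between them is uncertain. Among microRNA genes of 54 tested by symbol 3 rose and 5 fell. MIR5702 rose from 1.68, 1.75 and 1.59 CPM to 3.40, 3.23 and 3.65 (1.03 ± 0.13, adjusted p = 0.00365), and its groups did not overlap. MIR5580 fell from 52 counts over the Ctrl libraries to 6 over the KO libraries (−3.06 ± 0.36). Of these calls those of Metazoa_SRP, both RN7SL rows and MIR5702 were lost under ERCC scaling (adjusted p from 0.101 to 0.242). MIR5580 lies on the strand of BMP4, 1252 bases from its end, and BMP4 fell as well. Their mature sequences in RefSeq, shown because the rows are too short for their counts to tell hairpin from passing transcript, share no seed (capitals, bases 2 to 8 from the 5′ end).
hsa-miR-5580-3p: cACAUAUGaagugagccagcac
hsa-miR-5580-5p: uGCUGGCUcauuucauaugugu
hsa-miR-5702: uGAGUCAGcaacauaucccaug

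The called genes that gained the most CPM were strongly transcribed in both groups, apart from EHF, which rose from 0.48 to 285 CPM. FAT1, which encodes an atypical cadherin, stood at 1567, 1639 and 1653 CPM in Ctrl and 2721, 2618 and 2618 in KO (0.71 ± 0.07, adjusted p = 0.00156), a gain of 1033 CPM. No KO library came near the Ctrl range. TCF7L2, a transcription factor of WNT signalling, rose from 1730 ± 109 to 2319 ± 185 CPM (SD; 0.42 ± 0.09), and VMP1, an autophagy membrane protein, from 790 ± 30.4 to 1094 ± 4.55 CPM (0.47 ± 0.07). The lincRNA RP11-114H23.1 rose from 263, 251 and 301 CPM to 635, 450 and 608 (1.05 ± 0.16). MBNL2, a splicing regulator, gained 500 CPM (1.41 ± 0.33), PDP1, the pyruvate dehydrogenase phosphatase, 378 (0.62 ± 0.11), and PHLDB2, which links the cortex to microtubules, 362 (1.05 ± 0.25). In MBNL2 and PHLDB2, KO replicate 2 lay nearer to Ctrl than the other KO libraries did.

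The called genes with the largest losses of CPM each lost less than FAT1 gained. Summed over all called genes the order was the other way. The genes that fell changed by −46775 CPM and those that rose by 24970 CPM. These sums cover the 1482 falling and 2684 rising genes of the main fit. Falling calls numbered 858 under library size alone and 44 under ERCC scaling, and sums were not taken under those scalings. PDE4B, a cAMP phosphodiesterase, fell from 798, 717 and 1032 CPM to 419, 244 and 477 (−1.16 ± 0.27), and DOCK5, an activator of the GTPase Rac, from 624, 623 and 696 to 338, 265 and 359 (−1.01 ± 0.13). Both had KO libraries well below every Ctrl library. ANXA2, a calcium-dependent membrane-binding protein, fell from 1285 ± 72.9 to 862 ± 94.9 CPM (−0.58 ± 0.10), MYOF, a membrane repair protein, from 1134 ± 14.1 to 809 ± 10.4 CPM (−0.49 ± 0.07), and the actin crosslinker ACTN4 by 323 CPM (−0.74 ± 0.17). The lipid kinase gene PIP4K2A fell from 633 to 289 CPM (−1.13 ± 0.21). PVT1, the noncoding gene beside MYC, fell by 423 CPM (−0.35 ± 0.07), and MYC itself did not pass the test (0.15). LINC00511 fell from 667 to 369 CPM (−0.86 ± 0.09). None of these 15 changes, EHF left out, was called under ERCC scaling (adjusted p from 0.209 to 0.953). Leaving out 1 library other than KO replicate 2 ended the calls of TCF7L2, MBNL2, PHLDB2, ACTN4 and PVT1 in all 5 cases (highest adjusted p 0.121). It ended those of VMP1, PDP1, PDE4B, ANXA2 and PIP4K2A in 2 to 4 of the 5, and of FAT1, RP11-114H23.1, DOCK5, MYOF and LINC00511 in none. Removing each library's trend with gene span ended the calls of FAT1, TCF7L2, VMP1, MYOF and PVT1, scaling to library size alone those of ACTN4 and PVT1, and testing without a filter on low counts that of TCF7L2.

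Large folds were seen in genes of low level in one of the groups. PELI2, an E3 ubiquitin ligase of the Pellino family, rose from 0.906, 0.797 and 0.997 CPM to 32.1, 16.3 and 30.3 (4.86 ± 0.32), and the transcription factor gene NFIB from 2.09, 1.69 and 4.12 CPM to 60.7, 20.5 and 69.6 (4.25 ± 0.59). In both genes KO replicate 2 was the lowest KO library and still several times the highest Ctrl library. ANO4 rose by 4.71 ± 0.37 and RBBP8NL by 4.56 ± 0.29.

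Among the strongest decreases, BMP4, a secreted ligand of the TGF-beta family, fell from 138, 144 and 118 CPM to 22.2, 32.0 and 21.3 (−2.41 ± 0.20, adjusted p = 0.00111). ANO2, a calcium-activated chloride channel, fell from 8.92 to 0.989 CPM (−3.17 ± 0.14) and TMEM200A from 30.3, 25.3 and 42.0 CPM to 5.68, 2.62 and 6.21 (−2.75 ± 0.37). The groups did not overlap in any of them, which was a condition for choosing these genes and those of the preceding paragraph. Of PELI2, NFIB, ANO4, RBBP8NL, BMP4, ANO2 and TMEM200A, the call of TMEM200A alone was lost under ERCC scaling (adjusted p = 0.0818), and none without any 1 library.

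**Figure D3:**
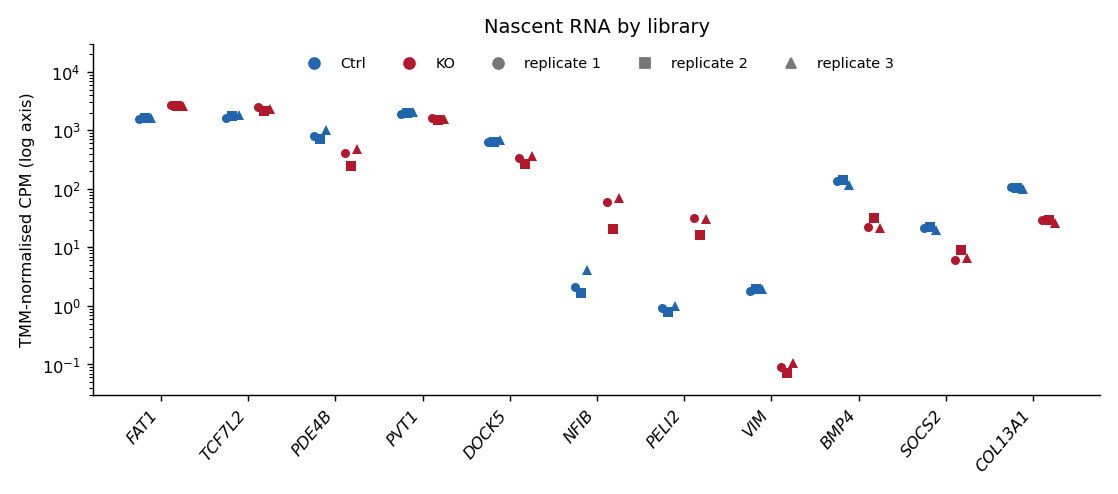
Normalised level in CPM (log axis) of 11 genes in each Ctrl (blue) and KO (red) library, with the marker shape giving the replicate. FAT1 and TCF7L2 sit at the top of the axis and move little, while VIM moves from between 1.79 and 1.93 CPM to between 0.0718 and 0.104; in NFIB and PELI2 the square of KO replicate 2 is the lowest KO point.

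A few genes were at the floor in one group and not in the other. With at most 9 counts over the 3 libraries of one group and at least 1 CPM in the other, a rule set after the values were seen, 3 genes appeared in KO and 4 disappeared. TTC22, a tetratricopeptide repeat gene on chr1:54779712-54801267, had 7 counts over the Ctrl libraries and 2122 over the KO libraries, where it stood at 7.71, 9.41 and 6.61 CPM. LINC00960 (chr3:75672391-75679303) had no count in Ctrl and 792 in KO, and RP11-103J17.2 (chr4:37001816-37020708) 4 and 2471. ZNF502, a zinc finger gene, went the other way, with 1547 counts in Ctrl (5.66, 5.75 and 6.19 CPM) and 3 in KO. The others that were lost were the chromosome 18 lincRNAs RP11-94B19.5, RP11-94B19.2 and RP11-94B19.7, with 480, 592 and 307 counts in Ctrl and 2, 4 and 1 in KO. All 7 were called, also under ERCC scaling and without any 1 library, and no fold is given where a group had 3 counts or fewer.

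Those lincRNAs lie in a stretch at the end of the long arm of chromosome 18 where neighbouring genes moved in blocks. Ahead of the blocks the calls were mixed and lay among genes not called. TIMM21 fell there (−0.50), while CNDP1 (2.11), LINC00909 (1.14) and RP11-405M12.4 (1.01) rose. Going towards the chromosome end (hg38), the noncoding genes RP11-1O2.1, RP11-94B19.6, RP11-94B19.1, RP11-94B19.5, RP11-94B19.2 and RP11-94B19.7, within chr18:76122998-76255214, all fell, and 4 of them had 3 counts or fewer in KO. The next tested gene, ZNF516 (chr18:76358190-76495190), a zinc finger repressor, rose from 50.6, 49.0 and 54.4 CPM to 299, 235 and 279 (2.40 ± 0.13, adjusted p = 0.000265). C18orf65, which starts beside it, rose by 1.95 ± 0.23, and MBP, the myelin basic protein gene, from 269 to 436 CPM (0.70 ± 0.08), a call lost under ERCC scaling (adjusted p = 0.323) and with the span trend removed. ZNF236 and 3 noncoding genes between them were not called. Then came RP11-176N18.2 (chr18:77421619-77560763), which was at 0.0906, 0.0604 and 0.109 CPM in Ctrl and 66.6, 33.8 and 65.2 in KO.

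Beyond it, all 8 tested coding genes up to the chromosome end fell. NFATC1, a transcription factor activated by calcineurin, went from 114, 102 and 97.0 CPM to 45.1, 54.6 and 43.5 (−1.13 ± 0.14). TXNL4A, a component of the U5 snRNP of the spliceosome, went from 183, 186 and 178 to 70.0, 83.4 and 70.0 (−1.29 ± 0.11). PARD6G, a cell polarity protein, went from 51.4, 54.1 and 53.5 to 21.8, 24.4 and 22.8 (−1.20 ± 0.11). In each of these 3 the groups were far apart, and the spread within them was small. The others were KCNG2 (−0.63), PQLC1 (−1.20), HSBP1L1 (−0.80), RP11-795F19.5 (−1.65) and ADNP2 (−0.92), and the median of the 8 was −1.16 (−1.31 without KO replicate 2, with all 8 called). The noncoding PARD6G-AS1 and RP11-248M19.1 in the same stretch were not called (−0.30 and −0.71). Under ERCC scaling the median was −0.96, and none of the 8 was called (adjusted p from 0.0594 to 0.715). The call of KCNG2 was also lost without any 1 of the other 5 libraries (highest adjusted p 0.107) and that of HSBP1L1 without Ctrl replicate 1 or 2 or KO replicate 1 (0.0647). The stretch was chosen after its values were seen.

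**Figure D4:**
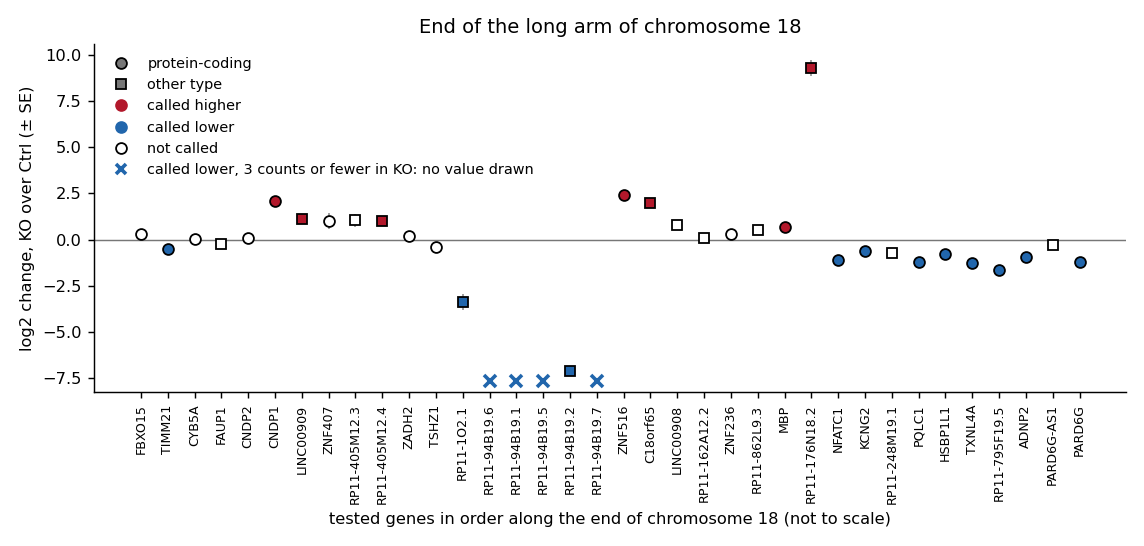
Log2 change (KO over Ctrl, ± SE) of the tested genes in order along the end of chromosome 18, evenly spaced and not to scale; circles are protein-coding genes and squares other types, red called higher, blue called lower and white not called. Crosses on the lower edge mark 4 noncoding genes called lower with 3 counts or fewer in KO, for which no value is drawn. These and the other noncoding decreases are followed by increases of ZNF516, C18orf65, MBP and RP11-176N18.2, and then by the 8 coding genes that fell, with a median of −1.16.

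Along the genome, 73 runs of at least 3 consecutive tested coding genes were called in the same direction, 55 higher with 185 genes and 18 lower with 60. With 12.3% of tested coding genes called higher and 7.81% lower, some runs can form without any regional change. How many would do so was not tested. The end of chromosome 18 was the longest run. The longest run of increases was part of the kallikrein cluster on chr19:50943303-51065114, secreted serine proteases of epithelia: KLK5 (4.40 ± 0.39), KLK6 (1.60 ± 0.28), KLK10 (2.51 ± 0.33), KLK11 (3.42 ± 0.33), KLK12 and KLK13 (0.59 ± 0.16). KLK5 stood at 0.141, 0.181 and 0.0972 CPM in Ctrl and 2.32, 4.39 and 2.25 in KO, and KLK10 at 1.28, 1.18 and 1.11 and 5.55, 10.3 and 4.60. KO replicate 2 held the highest level of both, and the groups did not overlap. KLK12 had no count in Ctrl and stood at 0.121, 0.168 and 0.197 CPM in KO. Of 9 tested kallikreins, looked at after these values were seen, 7 rose, including KLK1 (1.76 ± 0.28), while KLK4 (1.45, adjusted p = 0.0517) and KLK14 (−0.10) did not pass the test. The call of KLK13 was lost under ERCC scaling (adjusted p = 0.382) and without any 1 library but KO replicate 2 (highest 0.177), and that of KLK6 without Ctrl replicate 1 or 3 (highest 0.0701). Other runs of 4 increases held the butyrophilins BTN3A2, BTN2A2, BTN3A1 and BTN3A3 on chromosome 6 (0.90 to 1.13) and BACE2, FAM3B, MX2 and MX1 on chromosome 21 (0.57 to 2.75).

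Called noncoding genes moved with the coding gene they overlap more often than noncoding genes over all. Of 1440 noncoding genes that overlap a tested coding gene 66.5% had a change of the same sign as it. That share was little higher than for the nearest coding gene without overlap, at 63.3% within 100 kb and 59.5% beyond. Where the noncoding gene rose (160), 43.8% of the overlapped coding genes rose too, against 11.6% over all 1440, and where it fell (106) 17.9% fell, against 6.94%. The strand used in counting is not stated, so reads of overlapping genes on opposite strands cannot be told apart. Without overlap but within 100 kb, the nearest coding gene rose beside 22.2% of 409 rising noncoding genes, against 10.2% over 2196, and fell beside 20.8% of 106 falling ones, against 8.83%. Beyond 100 kb the nearest coding gene rose for 18.6% of 97 rising noncoding genes, against 13.7% over 597. For the 25 falling ones there it fell in 8% and rose in 28%, against 8.21% and 13.7%.

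Named pairs give the scale. VIM-AS1 fell from 1.46 to 0.164 CPM (−3.12 ± 0.23) with VIM, the vimentin gene it overlaps, which went from 1.79, 1.93 and 1.92 CPM to 0.0906, 0.0718 and 0.104 (−4.38 ± 0.18). SOCS2-AS1 fell by 1.67 ± 0.18 on the log2 scale with SOCS2, a suppressor of cytokine signalling, which went from 21.7, 22.8 and 19.6 CPM to 6.19, 9.17 and 6.63 (−1.54 ± 0.18). All KO libraries lay below all Ctrl libraries in both pairs, which for SOCS2-AS1 was a condition of its choice. The antisense gene RP4-625H18.2 rose by 2.54 ± 0.25, and ID4, an inhibitor of bHLH factors that overlaps its 5′ end, from 0.0410 to 0.314 CPM (2.87 ± 0.38). RP11-57H14.3, a gene typed sense_intronic on chr10:112888735-112906111, rose from 2.95, 2.71 and 3.10 CPM to 76.2, 58.1 and 65.8 (4.51 ± 0.16, adjusted p = 0.0001). It lies 44139 bases from TCF7L2 on the same strand, whose own change was 0.42. RP11-342D14.1 rose by 2.77 ± 0.13 while its nearest tested coding gene, KDM6A, was not called (0.17). The lincRNA RP11-486G15.2 fell by 1.15 ± 0.15 on the log2 scale, 131 bases from PRKACB, which was not called (0.28). Of the called genes in these pairs SOCS2-AS1 and RP11-486G15.2 lost their calls under ERCC scaling (adjusted p = 0.187 and 0.186), beside TCF7L2.

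Among the called pseudogenes, RP11-1134I14.2 rose from 1.68, 1.57 and 1.68 CPM to 9.89, 5.69 and 9.54 (2.35 ± 0.24). SCART1, a scavenger receptor relative on chr10:133453928-133523558, rose from 2.52 to 7.16 CPM (1.51 ± 0.22), and CYP2E1, an ethanol-oxidising cytochrome P450 that overlaps it, from 0.467 to 1.47 (1.65 ± 0.19). COL6A4P1, a disabled collagen VI gene, rose by 1.46 ± 0.22, while AC005682.6 fell from 11.3 to 4.60 CPM (−1.30 ± 0.12) and GTF2IP13, a copy of the transcription factor gene GTF2I, from 28.5 to 16.4 (−0.80 ± 0.11). Reads of such copies may be shared with their parent genes. All of these but RP11-1134I14.2 lost their calls under ERCC scaling (adjusted p from 0.0821 to 0.493).

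Gene families were grouped by the start of the symbol. Families of protein and RNA synthesis, RNA helicases and the proteasome, strongly transcribed as a whole, lay below the median of all genes. Complex I subunits (median −0.12), zinc finger genes (−0.14) and microRNA and small nucleolar host genes (−0.23) did so too. The counts that follow are for the former. Of 77 cytosolic ribosomal protein genes tested 0 rose and 7 fell (median −0.24), of 64 mitochondrial ones 1 rose and 2 fell (−0.19), of 42 proteasome genes 1 and 6 (−0.22), of 50 translation initiation factors 1 and 3 (−0.23), of 28 RNA polymerase subunits 0 and 5 (−0.27), and of 47 DDX and DHX helicases 1 and 7 (−0.23), against 12.6% and 6.98% of all genes. Their median levels lay between 43.3 and 174 CPM, where fewer genes rose and more fell than overall: 3.21% and 12.4% of coding genes above 64 CPM (median −0.13), and 6.22% and 7.41% at 16 to 64 CPM (−0.05). Against the class that holds its own median level, the share that fell was smaller for the cytosolic ribosomal proteins (9.09%), the mitochondrial ones (3.13%) and the initiation factors (6.00%), and larger for the proteasome (14.3%), the RNA polymerase subunits (17.9%) and the helicases (14.9%), while all 6 medians were lower than that of the class. Without KO replicate 2, 73 of 77, 40 of 64, 27 of 42, 30 of 50, 21 of 28 and 25 of 47 fell in the order given, against 28.4% of all genes, 47.0% of coding genes above 64 CPM and 42.6% at 16 to 64 CPM in that fit. Relative to the median of all genes these medians stood at −0.35 to −0.23 under the 4 scalings and at −0.53 to −0.34 without KO replicate 2. Their own sign turned under ERCC scaling for the mitochondrial ribosomal proteins (0.01), and no member of the 6 groups but PSMB9 was called there. Changes also went with gene span. Without KO replicate 2, of 2385 coding genes under 10 kb 316 rose and 1139 fell (median −0.35). Of 757 above 300 kb 407 rose and 37 fell (0.51). With all libraries these medians were −0.04 and 0.36. The families were not set against genes of like span, so the part of span in their medians was not tested. Mediator and Integrator subunits, which link factors to RNA polymerase II and process its transcripts, gave no call among 40 in edgeR (median −0.06; 1 higher and 18 lower without KO replicate 2). At an unadjusted p below 0.05, 0 of the 40 were higher and 4 lower, and the DESeq2 Wald test called 0 and 3. For the ribosomal proteins of the cytosol and the RNA polymerase subunits, whose count of rises was 0, these were 1 and 0 higher unadjusted and 0 and 0 by DESeq2.

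The called members of smallest p changed by more than their family medians. DDX31, a nucleolar helicase, stood at 234, 233 and 241 CPM in Ctrl and 133, 137 and 140 in KO (−0.79 ± 0.09, adjusted p = 0.00246). The initiation factor EIF5 fell from 245, 248 and 240 CPM to 147, 164 and 147 (−0.68 ± 0.09). POLR1E, a subunit of RNA polymerase I, fell by 0.89 ± 0.15 on the log2 scale, and POLR3C, of RNA polymerase III, from 58.4, 53.1 and 53.6 CPM to 33.6, 34.4 and 36.6 (−0.66 ± 0.11). The groups of these genes did not overlap. The initiation factor EIF4E3 rose instead, from 10.4 to 23.6 CPM (1.18 ± 0.12), as did the immunoproteasome subunit PSMB9 at a low level (0.0572 to 0.257 CPM, 2.14 ± 0.39). Leaving out 1 library ended the calls of POLR1E (highest adjusted p 0.0552, without Ctrl replicate 1 or 2), POLR3C (0.0654, without Ctrl replicate 1 or 2 or KO replicate 1) and PSMB9 (0.0746, without Ctrl replicate 1 or 2), and ERCC scaling those of DDX31, EIF5, POLR1E, POLR3C and EIF4E3 (adjusted p from 0.101 to 0.689).

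Other families lay above the median of all genes. Of 25 cadherins and protocadherins 10 rose and 0 fell (median 0.46), of 39 metalloproteases 13 and 2 (0.47), of 41 collagens 11 and 3 (0.44), of 53 UGT, CYP and aldehyde dehydrogenase enzymes 14 and 2 (0.46), of 38 nuclear receptors 8 and 0 (0.39), of 40 ABC transporters 12 and 2 (0.22), of 68 potassium channels 18 and 4 (0.16), and of 17 keratins 8 and 1 (0.43). Without KO replicate 2 the counts were 14 and 3, 16 and 5, 20 and 6, 23 and 13, 19 and 6, 15 and 10, 28 and 16, and 8 and 3, against 25.4% and 28.4% of all genes in that fit. Each of these medians lay above that of all genes under each of the 4 scalings and without KO replicate 2, by 0.11 to 0.53. Part of these families lay at levels where rising genes are frequent. At 1 to 4 CPM, the class of the median level of the cadherins, collagens, enzymes, potassium channels and keratins, 29.7% of coding genes rose and 5.59% fell (median 0.37). The potassium channels (26.5% rose), the collagens (26.8%) and the enzymes (26.4%) were below that share, and the cadherins (40.0%) and keratins (47.1%) above it. At 4 to 16 CPM, the class of the metalloproteases (33.3%) and ABC transporters (30.0%), 18.4% rose (median 0.17), and at 16 to 64 CPM, that of the nuclear receptors (21.1%), 6.22% rose. These differences between a family and its level class were not tested, and gene span was not matched here either. For the cadherins and the nuclear receptors, whose count of falls was 0 in edgeR, 1 and 2 members were lower at an unadjusted p below 0.05, and 0 and 1 by the DESeq2 Wald test. Solute carriers gave 33 and 27 of 298 (median 0.06), near the share of all genes, and kinesins 6 and 8 of 42.

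The sterol exporters were among the clearest members. ABCG1 stood at 3.45, 3.18 and 3.35 CPM in Ctrl and 19.0, 20.2 and 15.8 in KO (2.46 ± 0.14, adjusted p = 0.000368), and ABCA1 at 4.35, 4.90 and 4.69 and 25.5, 19.9 and 19.9 (2.23 ± 0.15). Neither gene's groups came near each other. The potassium channel genes KCND3 and KCNN3 rose by 2.26 ± 0.13 and 2.01 ± 0.14. PLXNA2, a semaphorin receptor, went from 1.84, 1.52 and 1.32 CPM to 20.0, 19.4 and 18.2 (3.62 ± 0.17), and EPHB1, a receptor for ephrins, rose from 5.07 to 18.3 CPM (1.85 ± 0.17) while the ligand EFNB2 fell from 165 to 77.3 (−1.09 ± 0.10). The Eph family as a whole gave 4 rising and 3 falling of 20. SERPING1, the C1 inhibitor of complement, rose from 0.0457 to 2.21 CPM (5.56 ± 0.33), CASP10, a death receptor caspase, from 1.51 to 9.08 (2.59 ± 0.13) and TRIM38, an E3 ligase of innate immune signalling, from 9.76, 9.22 and 8.73 CPM to 70.0, 58.6 and 66.8 (2.82 ± 0.13). All KO libraries of TRIM38 lay several times above Ctrl.

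Some abundant members of the same families fell. COL13A1, a transmembrane collagen, went from 108, 106 and 99.8 CPM to 30.0, 29.7 and 26.3 (−1.86 ± 0.11, adjusted p = 0.000391), and ADAM19, a membrane metalloprotease, from 157, 159 and 146 to 59.4, 67.2 and 54.8 (−1.35 ± 0.12). Neither set of KO libraries overlapped Ctrl. Of the genes with values in this and the preceding paragraph, those of EFNB2 and ADAM19 lost their calls under ERCC scaling (adjusted p = 0.386 and 0.125), and none lost it without any 1 library.

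Promoters of the genes that rose were poorer in CpG than those of other genes. RefSeq promoters (GRCh38.p14, 250 bases before to 50 after the start) matched 11030 of the 14730 tested coding genes. Under 10 CpG were found in 16.8% of them, in 32.9% of 1254 matched genes that rose and in 11.7% of 877 that fell. Among genes that rose by more than 2-fold and 4-fold the shares were 39.0% and 45.0%. Seen from the promoters, 22.2% of the 1858 with under 10 CpG belonged to genes that rose and 5.54% to genes that fell (median log2 change 0.30, and 0.28 without KO replicate 2). With 30 CpG or more the shares were 8.26% and 9.92% (median −0.05). Genes that fell by more than 2-fold also had under 10 CpG more often than all genes, in 29.2% of 113.

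Motifs were then searched in the same windows on both strands, whether or not a match overlapped another motif. CCGGAAG, the core that ETS-family factors bind, was in 16.5% of all matched promoters, 16.2% of those of genes that fell, 5.58% of those that rose and 3.48% of those that rose by more than 2-fold. CACGTG, an E-box, was in 9.47%, 11.7% and 7.42% of all, falling and rising genes. TGACGTCA, the cAMP response element, was in 2.95%, 4.10% and 1.83%, GGGCGG, the GC box, in 66.9%, 71.2% and 59.1%, and CCAAT in 35.8%, 36.4% and 33.7%. TATAAA was in 6.30%, 4.79% and 7.66%, TGANTCA, the AP-1 site, in 4.81%, 4.33% and 6.06%, and GAAANNGAA, of interferon response elements, in 6.31%, 5.70% and 7.89%. Motifs that hold a CpG were thus less frequent in rising genes, and those without one, CCAAT apart, somewhat more frequent. A match is a description of letters and not of binding. Level moved with both measures: under 10 CpG were found in 47.0% of promoters below 1 CPM and in 7.12% above 64 CPM. Within each of the 5 level classes rising genes held under 10 CpG more often than all genes, from 51.8% against 47.0% below 1 CPM to 11.8% against 7.12% above 64 CPM. They held CCGGAAG less often in each class, for example in 6.10% against 14.1% at 4 to 16 CPM and 8.18% against 20.4% above 64 CPM. Falling genes differed from rising ones less at matched level than when pooled. They held under 10 CpG in 44.1%, 38.3%, 24.4%, 9.06% and 4.56% from the lowest class to the highest, against 51.8%, 38.8%, 25.8%, 13.7% and 11.8% of rising genes, and so more often than all genes in the 3 middle classes. They held CCGGAAG in 8.82%, 8.33%, 12.2%, 19.3% and 16.9%, less often than all genes (14.1%, 21.4% and 20.4%) in the 3 upper classes.

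**Figure D5:**
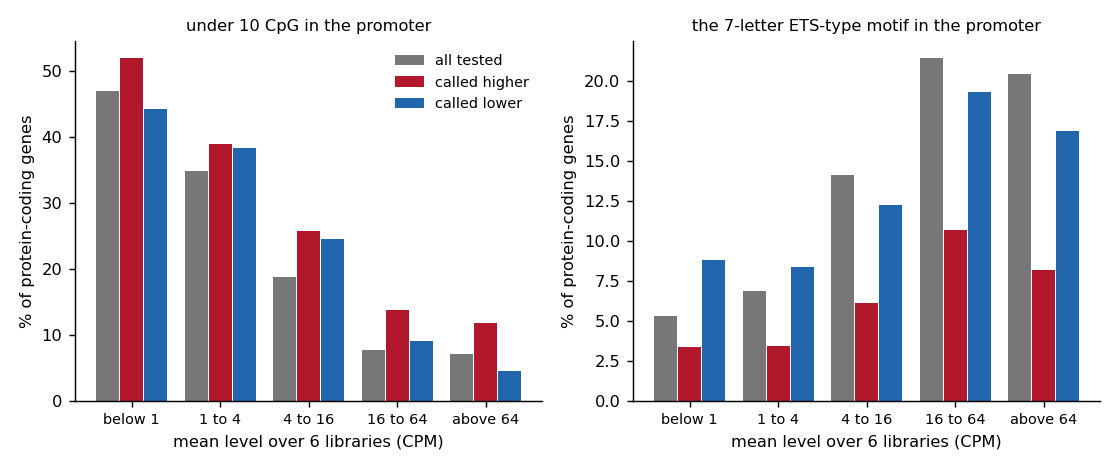
Percent of protein-coding genes with under 10 CpG in the promoter (left) and with the CCGGAAG motif on either strand (right), by mean level over the 6 libraries in CPM, for all tested genes (grey), genes called higher (red) and genes called lower (blue). Red exceeds grey in all level classes on the left, and lies below grey in all of them on the right; blue exceeds grey in the 3 middle classes on the left and lies below it in the 3 upper ones on the right.

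The 250 bases before the start are printed for a pair of genes that rose and a pair that fell. The genes were picked after their values were seen and differ more than their groups do. EHF, an epithelial ETS factor, went from 0.48 to 285 CPM and CASP4, an inflammatory caspase, from 0.828 to 30.9 CPM; DDX31 and POLR3C fell as given above. The windows are chr11:34624007-34624256 (plus strand) for EHF, whose RefSeq start lies inside the longer GENCODE gene, chr11:104968575-104968824 (minus strand) for CASP4, chr1:145823950-145824199 (plus strand) for POLR3C and chr9:132669984-132670233 (minus strand) for DDX31. Capitals mark CpG dinucleotides, 4 in EHF, 2 in CASP4, 30 in POLR3C and 28 in DDX31. With the 50 bases after the start included, EHF and CASP4 hold 8 and 3 CpG, against a median of 18.5 in matched genes that rose. POLR3C and DDX31 hold 37 and 34, against a median of 28 in those that fell. CCGGAAG occurs 1 time each in the windows of POLR3C and DDX31 and in neither of the others. The pair is not typical in this, as the motif was in 16.2% of matched genes that fell and 16.5% of all.
EHF: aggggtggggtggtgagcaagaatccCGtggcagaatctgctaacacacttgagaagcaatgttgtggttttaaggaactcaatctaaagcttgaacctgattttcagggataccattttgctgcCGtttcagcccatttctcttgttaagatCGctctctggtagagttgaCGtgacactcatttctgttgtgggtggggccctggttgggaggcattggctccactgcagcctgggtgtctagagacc
CASP4: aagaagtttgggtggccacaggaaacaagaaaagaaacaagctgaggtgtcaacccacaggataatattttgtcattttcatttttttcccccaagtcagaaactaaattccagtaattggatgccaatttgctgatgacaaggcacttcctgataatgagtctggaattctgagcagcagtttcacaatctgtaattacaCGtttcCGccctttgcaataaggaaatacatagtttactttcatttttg
POLR3C: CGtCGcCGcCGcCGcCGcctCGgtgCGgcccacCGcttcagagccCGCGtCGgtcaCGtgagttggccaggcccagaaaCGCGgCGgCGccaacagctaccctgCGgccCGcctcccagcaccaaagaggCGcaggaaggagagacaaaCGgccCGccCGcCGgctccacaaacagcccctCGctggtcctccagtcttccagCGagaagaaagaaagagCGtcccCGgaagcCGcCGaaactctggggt
DDX31: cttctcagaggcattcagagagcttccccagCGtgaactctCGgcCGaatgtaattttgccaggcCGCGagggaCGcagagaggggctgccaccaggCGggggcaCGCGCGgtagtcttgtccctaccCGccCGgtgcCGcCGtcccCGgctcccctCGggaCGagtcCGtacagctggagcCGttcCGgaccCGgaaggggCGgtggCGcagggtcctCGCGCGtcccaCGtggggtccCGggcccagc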

How the data were processed

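The 6 nascent RNA columns of the deposited table were used, 56104 gene rows, with a repeated header line and 92 ERCC rows left out of library sizes. The authors deposited whole-number counts per gene, not normalised. The tools named in the submitters' processing notes are HISAT2 2.1.0 (build hg38), featureCounts, SAMtools 1.3 and FastQC 0.11.2. The sources used here do not give the annotation, the strand setting or how reads with several alignments were counted. Symbols and types are those of the table; coordinates come from GENCODE 29, which matched 52890 IDs (94.3%).

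KO was compared with Ctrl by edgeR 4.0.16 (R 4.3.3): filterByExpr (minimum count 10), TMM, glmQLFit and glmQLFTest, two-sided, Benjamini-Hochberg over all tested genes, threshold 0.05; the code was tested on simulated data. SE is the log2 change over the square root of F. CPM values are TMM-normalised. DESeq2 1.42.0 and the other alternatives are described in the closing section. Named genes are PPM1G, the strongest called changes per type (mean log2 CPM of at least 2), the largest gains and losses of CPM, the called family members of smallest p, and coding neighbours; rows of lower level, the chromosome 18 stretch, the kallikreins, floor genes and the genes whose promoters are printed were chosen after their values were seen. Members, families and tests were chosen with earlier results of these data known. Not every gene that met the rule is named, and some results are not reported here.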

Additional observations from a re-analysis of the deposited data

How the results depend on the processing

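The count of 4166 called genes (2684 higher, 1482 lower) was 716 (672 and 44) under ERCC scaling, 1496 (1278 and 218) for a minimum log2 change of 0.5, 6907 (4156 and 2751) with the replicate block and 10893 (5529 and 5364) with both replicates numbered 2 left out, and 1322 to 11673 (1054 to 5515 and 268 to 6158) with 1 library left out. Falling genes numbered 858 under library size alone, 2426 by the DESeq2 Wald test and 2386 with each library's trend with gene span removed. Genes more than 2-fold higher numbered 672 under ERCC scaling, 1119 with a mean of at least 50 counts and 990 to 2505 with 1 library left out; those more than 2-fold lower 44 under ERCC scaling, 446 with both replicates 2 out and 154 to 572. In the order ERCC scaling, replicate block, minimum change, both replicates 2 out and 1 library out, called coding genes numbered 524, 5044, 1017, 8146 and 936 to 8685, long noncoding genes 158, 1465, 383, 2051 and 310 to 2153, and pseudogenes 32, 372, 90, 663 and 71 to 799; with a mean of 50 counts the noncoding genes and pseudogenes numbered 582 and 132. The change of PPM1G was −0.93 under ERCC scaling, where its call was lost, and −1.37 to −1.01 with 1 library left out. The KO less Ctrl share of long noncoding RNA was 0.26 percentage points without the 2 chromosome 21 rows, a setting added after the data were seen, like the removal of both replicates 2; with 1 library left out the differences ran from −2.18 to −0.55 (long noncoding), 0.538 to 2.18 (protein-coding), −0.0719 to 0.00869 (pseudogenes) and −0.0115 to 0.0440 (small RNA). The causes were not tested. Same-numbered libraries did not deviate together in every pair (r −0.0677, 0.713 and 0.695), so the numbers were not taken as pairs, and Ctrl replicate 1 correlated best with KO replicate 2. Of 119 called genes examined singly, 51 stayed called under ERCC scaling, 82 with the minimum change, 107 with the span trend removed and 119 with the replicate block. Each fit with 1 library left out has 2 samples in a group. Depth limits genes near the floor.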
